A study of Mus musculus with 3 samples.

Results

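The gene pair of Cxcl12, which encodes a secreted chemokine, and Cxcr4, which encodes its receptor, was followed across the germ layers of the gastrulating mouse embryo. The members were all probe sets annotated to either gene, a probe set being a group of short oligonucleotides against 1 transcript. There were 4 of them (3 for Cxcl12 and 1 for Cxcr4) among 45037 on the array, standing for 2 of 18193 named genes. The pair was chosen by its intensities on these arrays, the ligand being highest in epiblast and the receptor in mesoderm, so that those levels are a description and no test was made on them. Endoderm, mesoderm and epiblast (the last holding neuroectoderm and primitive streak) came from ICR embryos at E7.5, untreated and with no genotype given in the labels, and 1 Affymetrix Mouse Genome 430 2.0 array was run for each of them. Per the study's methods, the layers came from the embryonic region alone, after Reichert's membrane was removed, and were parted by hand after a brief enzyme digestion. The labels and methods do not say how many embryos contributed to an array, so an array may stand for a pool.

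CXCL12 binds CXCR4, a receptor with a seven-helix fold that signals through inhibitory G proteins and steers cells up a gradient of the ligand. ACKR3 binds the same ligand but signals mainly through arrestins and takes the ligand up into the cell, and DPP4 at the cell surface clips the ligand and inactivates it. In the embryo the pair is known for guiding germ cells, blood-forming cells and neurons, mice without either gene die before or around birth, and CXCR4 is used as a surface marker to sort definitive endoderm from cultured stem cells.

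The arrays measure transcript level and say nothing of promoter activity, but the genes that the results turn on are shown here by the 250 bases before their RefSeq start (GRCm38.p6), 5′ to 3′ on the gene's strand. Cxcl12 lies at chr6:117168285-117168534 on the + strand, Cxcr4 at chr1:128592300-128592549 on the - strand and Ackr3 at chr1:90203730-90203979 on the + strand. Capitals mark the matches, on either strand, to a TATA box (TATAAA) or a GC box (GGGCGG).
Cxcl12: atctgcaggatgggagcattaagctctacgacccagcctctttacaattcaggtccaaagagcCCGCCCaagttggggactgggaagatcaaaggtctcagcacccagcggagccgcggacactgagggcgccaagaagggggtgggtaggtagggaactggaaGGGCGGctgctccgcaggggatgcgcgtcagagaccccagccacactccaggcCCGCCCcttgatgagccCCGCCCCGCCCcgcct
Cxcr4: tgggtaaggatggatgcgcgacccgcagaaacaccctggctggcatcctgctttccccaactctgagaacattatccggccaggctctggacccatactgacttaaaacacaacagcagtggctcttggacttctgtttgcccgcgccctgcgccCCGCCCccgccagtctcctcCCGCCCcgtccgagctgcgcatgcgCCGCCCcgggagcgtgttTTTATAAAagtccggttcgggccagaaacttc
Ackr3: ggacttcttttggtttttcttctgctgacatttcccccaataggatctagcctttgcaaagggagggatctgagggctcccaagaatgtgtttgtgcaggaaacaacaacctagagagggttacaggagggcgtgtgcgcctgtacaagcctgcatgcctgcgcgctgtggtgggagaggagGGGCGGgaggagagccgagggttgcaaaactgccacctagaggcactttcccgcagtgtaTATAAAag
The ligand's window held 5 GC box matches, overlapping ones included, and no TATA box, and 64.4% of its bases were G or C. The Cxcr4 window held 3 GC boxes and a TATA box read on both strands, with overlapping matches beginning 32 and 30 bases before the start, and 61.2% of its bases were G or C. The Ackr3 window held 1 GC box and 1 TATA box, the latter 8 bases before the start, at 54% G or C. Of 32851 RefSeq windows of this length, 32.7% held the GC box letters and 12.4% those of the TATA box. The core letters of the hypoxia response element (ACGTG) occurred in none of the 3 windows and in 16.6% of all, which says only that these letters are not in the stretches shown.

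With 1 array per layer no difference below has a replicate check and p-values are not given. A gene was counted as apart where intensities differed by 2-fold or more and the highest was above the median of the whole table, an intensity of 80.6, used here as a floor because the table carries no background measure. A fold against a value below it is a bound, computed against the floor itself. Where intensities are listed without layer names, they stand in the order endoderm, mesoderm, epiblast. The spread that can be had is that between probe sets of the same gene, whose log2 differences had a pooled SD over 5536 genes of 0.40 between endoderm and epiblast, of 0.27 between mesoderm and epiblast and of 0.39 between endoderm and mesoderm. It is a spread between readings of the same gene, not an embryo-to-embryo error, and the part of measurement error in it was not tested. In tissue made of many cells, fewer cells of a type and less RNA per cell cannot be told apart.

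Cxcl12 was a transcript of the epiblast by 2 of its 3 probe sets. Probe set 1448823_at, which stands for the gene in the counts below, had intensities of 58.0 in endoderm, 82.3 in mesoderm and 718 in epiblast. Epiblast was thus the only layer clearly above the floor, with endoderm below it and mesoderm level with it. The ligand was 8.72-fold higher in epiblast than in mesoderm (log2 difference 3.13), and the bound against endoderm was at least 8.90-fold. Probe set 1417574_at read 27.9, 38.6 and 535 in the same order, again with epiblast alone above the floor and at least 6.63-fold higher than either other layer. The remaining probe set, 1439084_at, had nearly equal values of 89.4 in endoderm, 94.3 in mesoderm and 108 in epiblast. Its epiblast value was 1.21-fold that of endoderm and 1.15-fold that of mesoderm, with no 2-fold difference between any pair. Those log2 steps, 0.27 and 0.20, were within the pooled SDs of 0.40 and 0.27 between probe sets, so it gave no order of the layers. Whether the probe sets read different transcript ends was not tested. Between mesoderm and endoderm no order could be given, since the log2 difference of 0.50 for 1448823_at set a value near the floor against one below it.

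Cxcr4 was graded over all layers by its single probe set, 1448710_at. Intensities were 495 in endoderm, 1138 in mesoderm and 83.5 in epiblast, so the receptor was lowest where the ligand was highest. Mesoderm was 13.6-fold above epiblast (log2 difference 3.77) and endoderm was 5.93-fold above it (2.57). Mesoderm was also 2.30-fold above endoderm (1.20), and 1.93-fold above it when arrays were centred on housekeeping genes. Cxcr4 was picked for being highest in mesoderm, so this step is a description. The epiblast value stood just above the floor, where a low level and background cannot be told apart. With 1 probe set for the gene, no other reading on the array bears on these values.

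**Figure D1:**
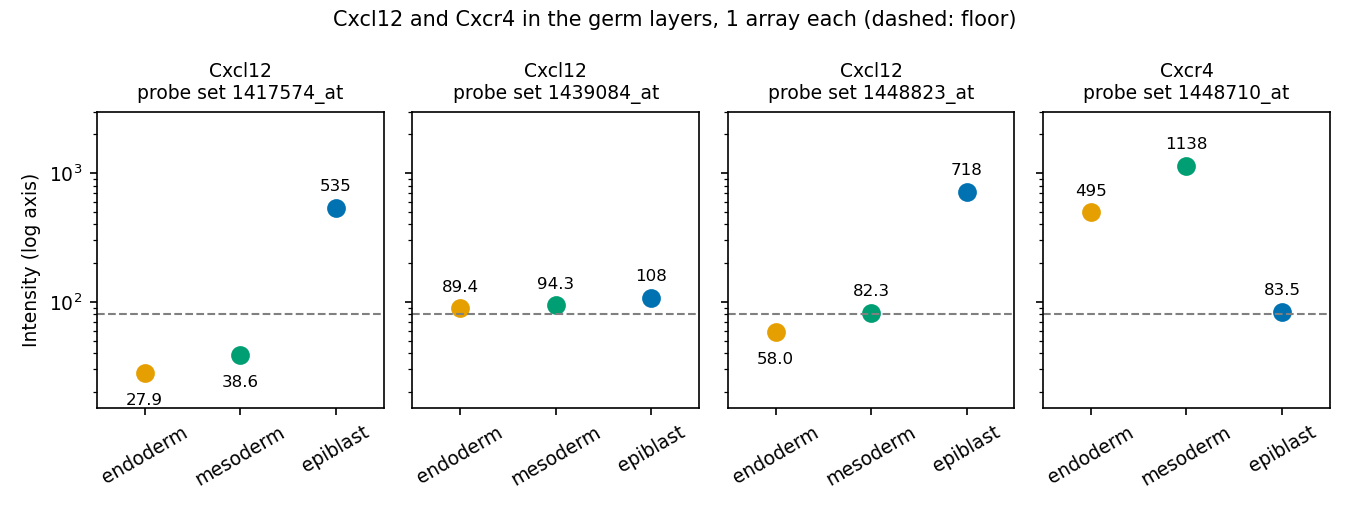
Intensity (log axis) of the 4 probe sets of Cxcl12 and Cxcr4 in endoderm, mesoderm and epiblast, 1 point per array, with the floor of 80.6 dashed. Probe sets 1448823_at and 1417574_at rise to 718 and 535 in epiblast, 1439084_at stays between 89.4 and 108, and Cxcr4 runs from 83.5 in epiblast to 1138 in mesoderm.

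For background, of 12785 genes above the floor in at least 1 layer, 4.01% were 2-fold or more higher in epiblast than in endoderm and 3.25% in epiblast than in mesoderm, the directions of Cxcl12. In the directions of Cxcr4 the shares were 3.44% for mesoderm over epiblast, 3.86% for mesoderm over endoderm and 12.5% for endoderm over epiblast. In the direction left over, endoderm over mesoderm, 11.4% of genes were 2-fold higher and neither member was. The pair was picked for these differences, so nothing is read from the shares.

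The other receptor for the ligand was ordered over the layers as Cxcr4 was. Ackr3, the atypical receptor that scavenges CXCL12, had intensities of 156 in endoderm, 264 in mesoderm and 80.3 in epiblast, the last at the floor. It was at least 3.28-fold higher in mesoderm than in epiblast and 1.70-fold higher there than in endoderm. The step between mesoderm and endoderm was below the 2-fold limit. Endoderm exceeded epiblast by at least 1.93-fold, a bound that does not place this step above or below that limit. Mesoderm stayed highest and epiblast lowest with quantile normalization and with housekeeping centring, under which endoderm was 1.90-fold and 2.64-fold above epiblast. Ackr4, an atypical receptor that scavenges other chemokines, showed a shallower form of the same order. Its brightest probe set read 128, 171 and 77.1, at least 2.12-fold higher in mesoderm than in epiblast. A further Ackr4 probe set read 116, 157 and 75.8, and the last stayed below the floor with 54.1, 65.4 and 73.7, in another order.

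The protease gene Dpp4, whose product inactivates the ligand, was confined to endoderm as far as the floor allowed. It had intensities of 1367 in endoderm, 49.1 in mesoderm and 46.2 in epiblast, at least 17.0-fold higher than in either other layer. Of its 3 other probe sets, 481 and 106 were the endoderm values of those above the floor there, and the last was below it in all layers. Cd164, a sialomucin known to associate with CXCR4, was 4004, 2914 and 2738, and Mif, a cytokine that also binds CXCR4, was 9861, 9952 and 11178, neither of them 2-fold apart. Cxcl14, a chemokine reported to interact with CXCR4, ran from 91.1 to 116, while Cd74, the gene of a MIF receptor, did not reach the floor in any layer (69.3 to 72.6). Hmgb1 was not analysed here. In the list of the CXCL12 axis, 4 of 7 genes above the floor (57.1%) were therefore 2-fold apart for some pair of layers, the background over all genes being 21.5%, and the list holds both genes chosen for their difference. Without them the count was 2 of 5, Ackr3 and Dpp4. The median log2 differences of the list were 0.55 for endoderm minus epiblast, 0.09 for mesoderm minus epiblast and -0.08 for endoderm minus mesoderm, and those of all genes above the floor were 0.05, -0.02 and 0.07.

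Of 53 other chemokine ligands and receptors on the array, 24 (45.3%) were above the floor in at least 1 layer, against 70.3% of all genes. Of these 24, Ackr3 and Ackr4 (8.33%) were 2-fold apart, below the background of 21.5%. Leaving out the members, the median over the family of each gene's highest intensity was 72.8, below the floor. Of 17 ligands above the floor, Cxcl12, which was picked for its difference, was the only one that was 2-fold apart. The 16 others had ranges of up to 0.61 on the log2 scale, the largest being that of Pf4, a platelet chemokine, at 62.0, 81.5 and 94.7. Cx3cl1, a membrane-bound chemokine, was 290 in endoderm and mesoderm and 383 in epiblast, and Cxcl9, which attracts T cells, was 62.1, 70.5 and 84.5. Of these 16 ligands, 12 were highest in epiblast by less than 2-fold, and the array median was 82.2 in epiblast and 79.9 in the other layers. The part of that offset in the small differences was not tested. Of 9 receptors above the floor, Cxcr4, Ackr3 and Ackr4 were apart, all highest in mesoderm, and Cxcr4 was picked for this. Of all 2743 genes that were apart, 17.4% were highest in mesoderm. The 6 other receptors had log2 ranges of at most 0.57, that of Ackr2 (79.4, 99.1 and 118).

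**Figure D2:**
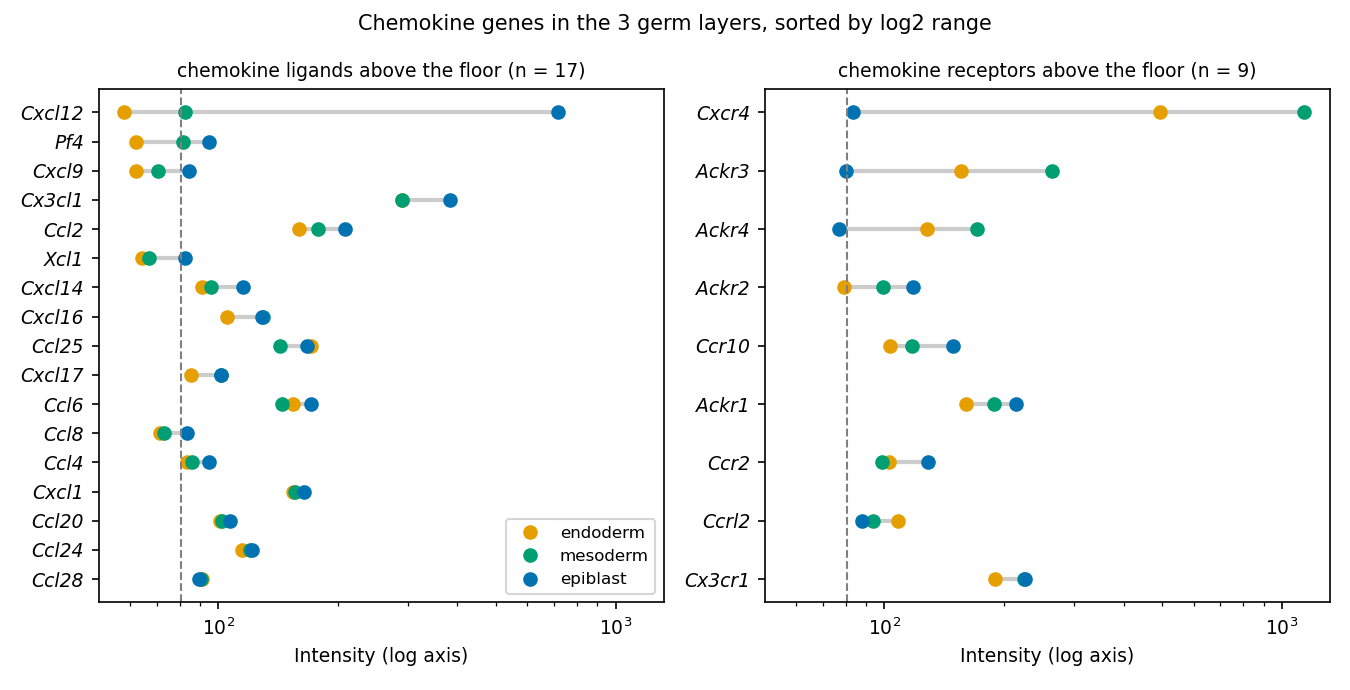
Intensity (log axis) in endoderm, mesoderm and epiblast (1 array each) for the 17 chemokine ligands and 9 chemokine receptors above the floor of 80.6 (dashed), sorted by log2 range with the widest at the top. Cxcl12, Cxcr4, Ackr3 and Ackr4 are 2-fold or more apart and the other genes lie close together.

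Of 34 signalling genes that act after the receptor, 31 were above the floor in each layer, and Pik3cg, Vav1 and Vav3 were below it in all. Of the 31, 8 (25.8%) were apart, near the background of 21.5%. The inhibitory G protein subunit genes Gnai2 and Gnai3, through which CXCR4 signals, were 3294, 2216 and 3080, and 3720, 3052 and 2882. The GTPase genes Rac1 and Cdc42, which drive protrusion, were 5640, 4837 and 4882, and 3976, 3313 and 3046. None of these 4 genes was 2-fold apart. Of the 8 genes that were apart, 7 were highest in endoderm, as were 65.4% of all 2743 genes that were apart. Gng12, a G protein gamma subunit gene, was 2394, 337 and 173, a 13.9-fold excess of endoderm over epiblast. Jak2, a kinase gene tied to cytokine receptors, was 469, 182 and 90.6, Stat3, its effector, was 579, 154 and 121, and Pxn, a focal adhesion gene, was 1907, 836 and 601. Of the other probe sets of Stat3, 1 was also highest in endoderm (340, 101 and 81.5), 1 was level (106, 98.3 and 99.7) and 1 was below the floor. Median differences of the list were 0.37 for endoderm minus epiblast, 0.05 for mesoderm minus epiblast and 0.31 for endoderm minus mesoderm. With quantile normalization or with the mean of probe sets, 5 and 4 genes of the list were apart. The count over all genes was then 2538 and 2193, in place of 2743.

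Among genes that switch the receptor off, 3 of 18 above the floor (16.7%) were apart, no more than the background of 21.5%. Arrb1, a beta-arrestin gene whose product binds the phosphorylated receptor, was lowest in endoderm, at 97.8, 455 and 382, a 4.65-fold excess of mesoderm over endoderm. Arrb2, the other beta-arrestin gene, was nearly level at 451, 473 and 616. Rgs5, which shortens G protein signals, was 67.5, 250 and 95.6, highest in mesoderm like Cxcr4. It was 2.62-fold above epiblast there and at least 3.10-fold above endoderm, and another of its 4 probe sets read 45.5, 340 and 40.6. Rgs10, of the same family, was highest in epiblast at 117, 217 and 377. The kinase gene Grk5, whose product phosphorylates active receptors, was 70.3, 122 and 105, within 2-fold. Median differences of the list were -0.19 for endoderm minus epiblast, 0.14 for mesoderm minus epiblast and -0.19 for endoderm minus mesoderm.

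Heparan sulfate chains hold CXCL12 at cell surfaces, and genes for their assembly and carrier proteins were read as a list. Of 23 above the floor, 11 were 2-fold apart (47.8%, with a background of 21.5%). At the 3-fold limit 7 of the 23 were apart, and 1428 of all 12785 genes above the floor. Of the 11 that were 2-fold apart, 6 were highest in endoderm, 3 in mesoderm and 2 in epiblast. The matching shares of all 2743 genes that were apart were 65.4%, 17.4% and 17.2%. Sdc4, a syndecan gene, was 1905, 285 and 445, or 6.69-fold higher in endoderm than in mesoderm, and Gpc3, a glypican gene, was 6026, 2714 and 1061. The sulfotransferase genes Hs3st3b1 and Hs6st2 were highest in mesoderm, at 142, 397 and 67.6, and 224, 1030 and 640. Hs3st3b1 was at least 4.93-fold higher in mesoderm than in epiblast, though its 3 other probe sets were within 2-fold. Those above the floor were highest in epiblast instead, at 127, 155 and 160, and at 112, 140 and 149. The last was below the floor in all layers. Median differences of the list were 0.29 for endoderm minus epiblast, 0.16 for mesoderm minus epiblast and 0.21 for endoderm minus mesoderm.

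**Figure D3:**
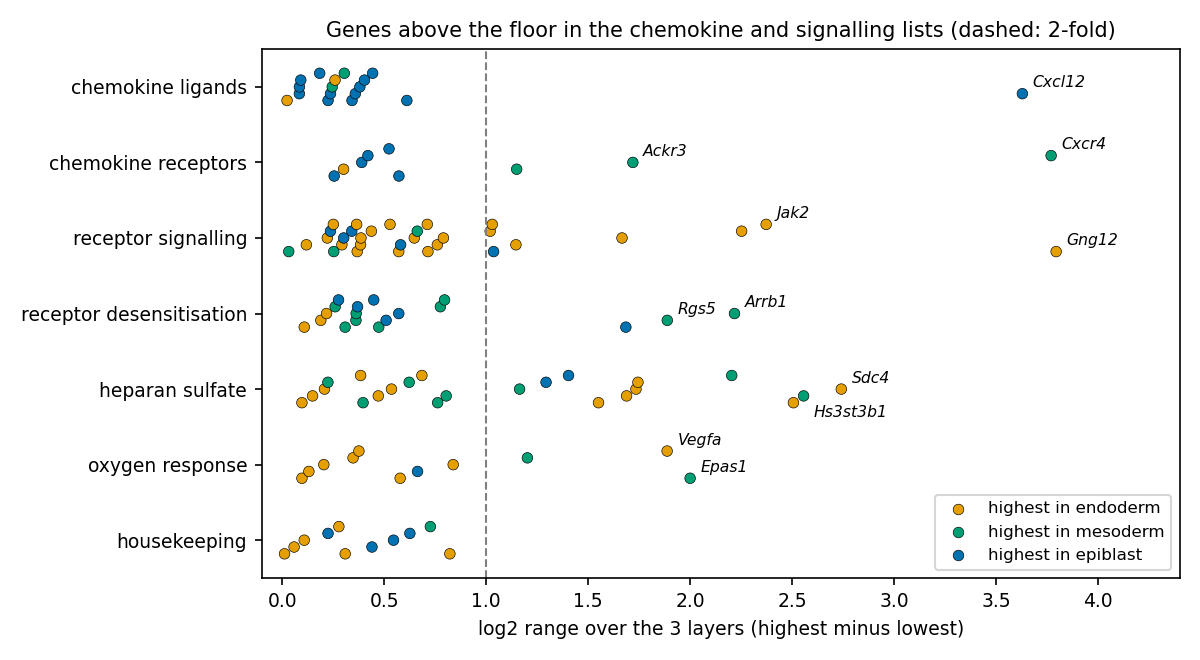
Log2 range over the layers (highest minus lowest intensity, 1 array each) for the genes above the floor in 7 lists, with 1 point per gene coloured by its highest layer and the 2-fold limit dashed. Cxcr4 and Cxcl12 lie at 3.77 and 3.63, and all 11 housekeeping genes lie below the limit.

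Genes whose levels changed over the layers most like those of each member were found by the distance between log2 values centred on each gene's mean, over 3 arrays and 12170 named genes above the floor. Nearest to Cxcl12 were Slc35d3, Nkx1-2, Myb, Bmerb1, Slc7a3, Ldb2, Ndrg2 and Fabp3, at distances from 0.21 to 0.91. Slc35d3, a gene of the nucleotide sugar transporter family, was 23.3, 39.0 and 281. Nkx1-2, a homeobox gene, was 165, 349 and 2413, and Myb, a transcription factor gene, was 61.1, 53.4 and 540. These 8 genes were highest in epiblast, as the measure requires, and 5 of them were below the floor in both other layers, where differences are uncertain.

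Nearest to Cxcr4 were Adgra2, Capn6, Fbn2, Col23a1, Gata6, Twist1, P3h2 and Tgfbi, at distances from 0.23 to 0.73. Adgra2, an adhesion receptor gene, was 205, 381 and 29.3. Fbn2, a fibrillin gene of the extracellular matrix, was 247, 867 and 54.9. Gata6, a transcription factor gene of endoderm and mesoderm, was 644.5, 1079 and 63.9, and Twist1, a transcription factor gene of mesenchyme, was 413, 1528 and 117. Of these 8 genes, 6 were below the floor in epiblast, so that their distances are uncertain too. Of the receptors, Ackr3 was at rank 76 with a distance of 1.53 and Ackr4 at rank 192 with 1.90.

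**Figure D4:**
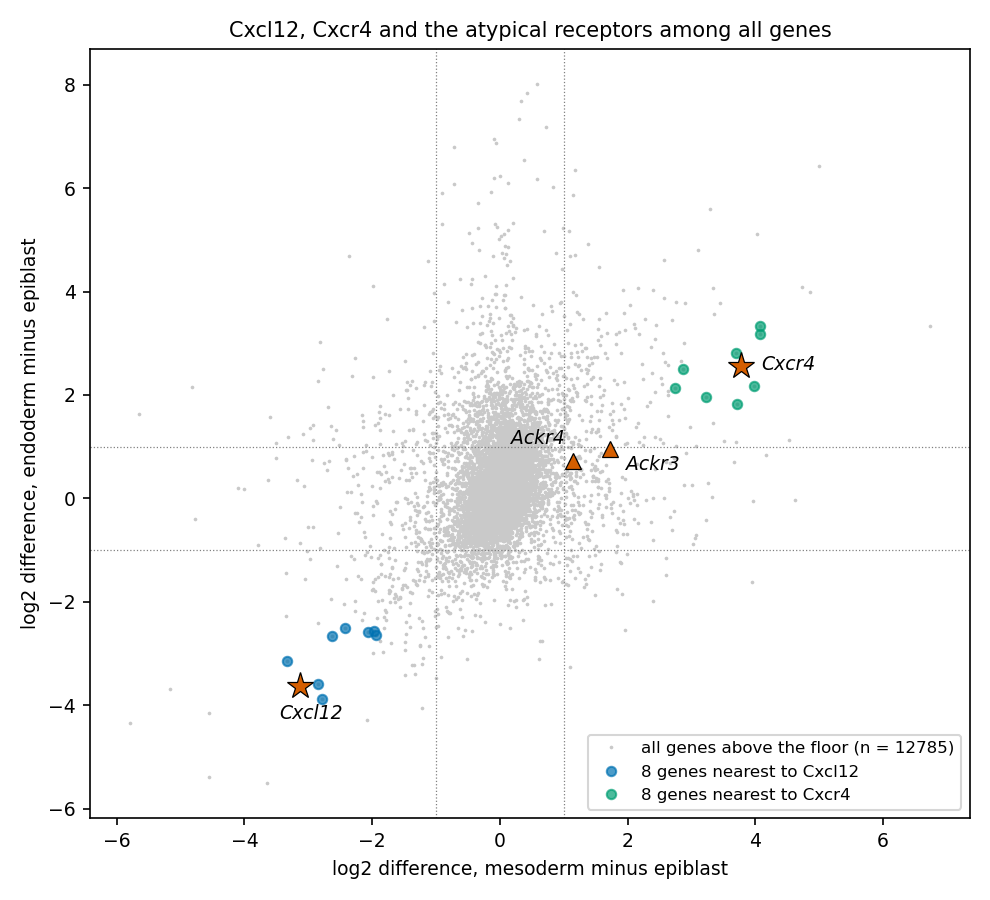
Log2 difference of mesoderm minus epiblast (horizontal axis) and endoderm minus epiblast (vertical axis) for 12785 genes above the floor (grey), from 1 array per layer, with the 2-fold limits dotted. Cxcl12 lies at the lower left and Cxcr4 at the upper right (stars), each among its 8 nearest genes, and Ackr3 and Ackr4 (triangles) lie on the same side as Cxcr4 at smaller differences.

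Most of the markers used to check the dissection were highest in their own layer, and markers of other cell types were measured beside them. Sox17 was 4170 in endoderm, Kdr 2300 in mesoderm and Sox2 3032 in epiblast, each at 147 or less in the other layers, Foxa2 was 3247, 47.4 and 188, Foxf1 was 216, 1098 and 298, and Pax6 did not follow its layer, at 181, 92.4 and 121. In mesoderm, where Cxcr4 was highest, the 13 nascent and paraxial markers had a summed intensity of 15629, against 2436 in endoderm and 4922 in epiblast. All 13 were above the floor in both mesoderm and epiblast, and 10 of them in endoderm. The 12 lateral plate and cardiac markers summed to 2197, 8080 and 1544 in the order endoderm, mesoderm and epiblast, with 7, 11 and 6 of them above the floor. The 12 haemato-endothelial markers summed to 1538, 6051 and 1631, with 6, 7 and 6 of them above the floor, and the endothelial genes Cdh5 and Pecam1 were below it in all layers. In endoderm, 11 of 12 definitive endoderm markers and all 12 visceral endoderm markers were above the floor, summing to 19612 and 75306 against at most 3371 and 1590 elsewhere. In mesoderm and in epiblast, 6 of the definitive and 7 of the visceral endoderm markers were above the floor. In epiblast, where Cxcl12 was highest, the 12 pluripotency markers summed to 37984 (25307 in endoderm, 12922 in mesoderm), the 12 primitive streak markers to 9410 (4846 and 4925) and the 11 neuroectoderm markers to 7541 (3428 and 4835). The last sum rested on Sox2, which is also in the pluripotency list: the 10 others summed to 3356, 4705 and 4509 over the layers, with Cdh2 and Ncam1 highest in mesoderm and Hesx1 in endoderm. In the pluripotency list Cdh1, Epcam, Lin28a and Fgf5 were highest in endoderm, as were Lhx1, Sp5 and Nodal in the streak list. The 6 node and notochord markers summed to 5300.4, 671 and 985, and the 9 trophoblast markers to 4385, 2475 and 3676. Foxa2, also a definitive endoderm marker, gave 3247 of the node and notochord sum in endoderm. Shh and Foxj1 were highest there too, at 903 and 530. In the trophoblast list Cdx2 was 1283, 932 and 1817, and Eomes, also a streak marker, was 773, 470 and 886. Plac1 was 1138, 305.5 and 68.2, and Elf5 and Tpbpa were below the floor in all layers. Primordial germ cell, immune and erythroid markers ran from 1312 to 1669, 615 to 721 and 441 to 462 over the layers, and Ptprc, which marks all white blood cells, was below the floor throughout. The part of any of these cell types in the levels of Cxcl12 and Cxcr4 was not tested.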

How the data were processed

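Total RNA (100 ng per array, per the labels) from endoderm, mesoderm and epiblast at E7.5 was hybridised to 3 arrays, 1 per layer. The authors deposited linear intensities, made per the labels by Robust Multiarray Average (RMA), which corrected background and normalized the arrays, and by the affy package, which summarised probe sets. RMA usually yields log2 values, and neither labels nor methods name the step that made these linear, so differences among dim values rest on an unknown step. Medians were 79.9 to 82.2 and maxima 15196 to 15688. Precision is limited by having 1 array per layer.

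Of 45037 probe sets, 34945 had 1 gene symbol in the platform annotation, 932 had several and 9160 had none. Identifiers were checked against a RefSeq gene table (GRCm38.p6), which held 34741 of them and altered 0 symbols. A gene was represented by its brightest probe set (mean of log2). Intensities were converted to log2 with no pseudocount and subtracted between layers. The test that the methods name for arrays, Significance Analysis of Microarrays, needs replicates and was not run.

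The 22 gene lists (8 of pathways, 14 of markers) had 329 entries, 23 of them not analysed here. The members and lists were chosen with earlier results of these data known. Named were the members, the CXCL12 axis list, up to 4 genes per pathway list with the largest range, chemokine genes that were apart, the 8 genes nearest to each member and the markers used to check the dissection. Gnai2, Gnai3, Rac1, Cdc42, Arrb2, Cdh5, Pecam1, Ptprc and Hif1a, with the genes that exceptions turn on (Pik3cg, Vav1, Vav3, Cdh2, Ncam1 and Hesx1), were added after their values were seen, for their role. Cdh1, Epcam, Lin28a, Fgf5, Lhx1, Sp5 and Nodal were likewise named after their values were seen, as exceptions in their lists. So were Sox1, Sox3, Six3, Zic2, Lhx2, En1, Shh, Foxj1, Cdx2, Eomes, Plac1, Elf5, Tpbpa, Bnip3, Ankrd37 and Adm, to show other members of their lists. Alternatives were quantile normalization, housekeeping centring (11 genes), other ways to join probe sets, dim values raised to the floor, a pseudocount of 50, a floor at the 75th percentile (286) and a 3-fold limit. Functions were tested on simulated data. Python 3.11.15, pandas 2.3.3, numpy 2.4.6 and matplotlib 3.10.9 were used.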

Additional observations from a re-analysis of the deposited data

How the results depend on the processing

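Of 48 alternative values for the members' differences, 19 equalled the reported value, among them those that join probe sets for Cxcr4, which has 1, and of the 29 others 0 had the opposite sign. The 29 include the steps of 1439084_at, which was nearly level, so their sign carries little. Over all 176 values, counts included, 135 stayed within the spread between probe sets (for counts, within 1.5 times) and 41 did not. The log2 difference of Cxcl12 for epiblast against mesoderm, 3.13 as reported, was 2.37 with the mean of probe sets, 2.54 with a pseudocount of 50, 3.79 by probe set 1417574_at and 0.20 by 1439084_at. For epiblast against endoderm, where the report gives the bound, it was 3.63 as deposited, 3.18 with housekeeping centring, 2.72 with the mean of probe sets, 3.15 with dim values raised, 2.83 with the pseudocount, 4.26 by 1417574_at and 0.27 by 1439084_at. For mesoderm against endoderm it was 0.029 with dim values raised and 0.077 by 1439084_at. For Cxcr4 the pseudocount gave 3.15 between mesoderm and epiblast and 2.03 between endoderm and epiblast, and housekeeping centring gave 3.01 for the latter.

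Genes 2-fold higher in endoderm than in epiblast, 1598 as reported, numbered 2980 with housekeeping centring, and those higher in epiblast, 513, numbered 246 with that centring, 329 with the pseudocount and 325 with the 75th percentile floor. Genes higher in mesoderm than in epiblast, 440, numbered 291 with the pseudocount, and those lower, 415, numbered 275 with it and 266 with that floor. With the 3-fold limit the counts were 774 for endoderm over epiblast, 182 for the reverse, 181 for mesoderm over epiblast, 193 for the reverse, 767 for endoderm over mesoderm, 220 for the reverse, and 1428 apart in any pair. The share of higher among the calls for endoderm against epiblast was 75.7% as deposited, 64.3% with quantile normalization and 92.4% with housekeeping centring, and the median of all genes moved from 0.05 to -0.11 and 0.50. For endoderm against mesoderm the share was 74.7%, 65.8% and 85.6%, with medians of 0.07, -0.08 and 0.33, and between mesoderm and epiblast it was 51.5%, 50.2% and 64.6%, with medians of -0.02, -0.03 and 0.17. That centring rested on Tfrc in endoderm and Hprt in the other layers.

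Of the chemokine receptors, 3 as reported, 1 was apart with the 75th percentile floor. With the mean of probe sets, the pseudocount or the 3-fold limit, 2 were. Of the signalling list 5 were apart with quantile normalization, 4 with the mean of probe sets, 5 with the pseudocount and 4 with the 3-fold limit, which left 7 of the heparan sulfate list. The count over all genes, 2743 as reported, fell too. It was 1978 with that floor, 2538 with quantile normalization, 2193 with the mean of probe sets, 2145 with the pseudocount and 1428 with the 3-fold limit. Of the 8 genes nearest to Cxcl12, 5 were shared with the mean of probe sets, the brightest probe set by intensity, the pseudocount and the 75th percentile floor, and 4 with dim values raised, where 5 of those nearest to Cxcr4 were shared. The causes were not tested. No paired analysis was possible because each layer has 1 array.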

Other observations

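Genes of the oxygen response, which is known to raise Cxcr4 in many cell types, were read beside the pair. Of 11 genes above the floor, 3 (27.3%) were 2-fold apart, the background being 21.5%. Epas1, a hypoxia-inducible factor gene, was 441, 458 and 115 (endoderm, mesoderm, epiblast), so that it was lowest in epiblast as Cxcr4 was, 3.85-fold below endoderm. Its other probe set was below the floor in all layers. Hif1a, the better known factor of this family, was level at 2806, 2762 and 2623. Vegfa, a target of these factors, was 554, 380 and 150, and Egln3, a prolyl hydroxylase gene, was 218, 502 and 473, with endoderm lowest. Egln2, of the same family, was 752, 499.9 and 420.3. The median log2 differences of the list were 0.16 for endoderm minus epiblast, 0.07 for mesoderm minus epiblast and 0.20 for endoderm minus mesoderm. The second probe set of Vegfa was nearly level, at 195, 178 and 202. Also in the list, Bnip3 (3536, 2367 and 3018.5) and Ankrd37 (221, 183 and 173) were within 2-fold, and Adm was below the floor in all layers. Whether oxygen supply differed between the layers was not measured.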
